A study of Mus musculus with 6 samples.

Results

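The 10 heat shock chaperone genes described here were selected by gene symbol from the 20632 genes of the expression table of mouse hind limb muscle. They comprise 6 inducible chaperones or their close relatives of the HSP70, HSP90, HSP110 and HSP40 classes (*Hspa1a*, *Hspa1b*, *Hspa8*, *Hsp90aa1*, *Hsph1* and *Dnajb1*) and 4 small heat shock proteins of muscle (*Hspb1*, *Hspb6*, *Hspb7* and *Cryab*). The first 6 are called inducible chaperones or inducible genes below for short, although *Hspa8* is constitutive. In muscle lacking Baf155, the transcripts of the stress-inducible HSP70 pair *Hspa1a* and *Hspa1b* were at 0.498 and 0.468 of the control level, whereas those of the small heat shock proteins *Hspb6* and *Hspb7* were at 1.44 and 1.34 of it. In each of these 4 genes the 3 mice of one genotype did not overlap with the 3 of the other, but no chaperone gene reached an adjusted p under 0.05 in edgeR's quasi-likelihood test. The *Hspa1a* and *Hspa1b* differences were of similar size when only mice with the same title prefix were compared, and the *Hspb6* and *Hspb7* differences were smaller there.

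The study compared unexercised male mice aged 3 months on a C57BL/6 background (C57BL/6J in the study's methods), with 3 mice per genotype and 1 library per mouse. Control mice (Baf155 WT, labelled wild type) carried floxed *Baf155* alleles without Cre (Baf155 f/f), and mutant mice (Baf155 ΔMF, labelled Baf155 -/-) were MCK-Cre; Baf155 f/f. Floxed alleles were therefore shared by all mice. MCK-Cre is driven by the promoter of muscle creatine kinase, which is active in differentiated skeletal muscle fibers and in heart. The RNA came from all muscles of the hind limb together (tibialis anterior, extensor digitorum longus, gastrocnemius, soleus and quadriceps). This tissue also holds blood, vessel, nerve and connective tissue cells in which this Cre is not driven.

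Heat shock proteins bind unfolded or damaged proteins. HSP70 proteins bind and release client proteins in a cycle driven by ATP, J-domain proteins of the HSP40 class load clients and start ATP hydrolysis, HSP110 proteins exchange the nucleotide, and HSP90 takes over clients for late folding. Small heat shock proteins need no ATP and hold clients in a soluble form, and in muscle they attach to the Z-disc, desmin, filamin and titin during contraction and stretch. The stress-inducible members are transcribed when heat shock factor 1 (HSF1) binds heat shock elements, which are arrays of inverted GAA units in their promoters.

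The upstream sequences of the HSP70 pair are shown because both genes had the largest differences and because they are close copies. RefSeq promoter sequence on GRCm38.p6 was at hand for 7 of the 10 genes. These were *Hspa1a*, *Hspa1b*, *Hsph1*, *Dnajb1*, *Hspb1*, *Hspb6* and *Hspb7*, with 10 start sites among them. The 250 bases before each start were searched on both strands, and capitals mark GAANNTTC, in which a pair of inverted GAA units faces each other.
Hspa1a, chr17:34972157.0-34972406, minus strand: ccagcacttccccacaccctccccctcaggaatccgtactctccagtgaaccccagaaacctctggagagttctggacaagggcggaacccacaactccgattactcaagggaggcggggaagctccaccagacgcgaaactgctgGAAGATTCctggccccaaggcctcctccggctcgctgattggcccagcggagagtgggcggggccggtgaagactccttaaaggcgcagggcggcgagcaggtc
Hspa1b, chr17:34959239.0-34959488, minus strand: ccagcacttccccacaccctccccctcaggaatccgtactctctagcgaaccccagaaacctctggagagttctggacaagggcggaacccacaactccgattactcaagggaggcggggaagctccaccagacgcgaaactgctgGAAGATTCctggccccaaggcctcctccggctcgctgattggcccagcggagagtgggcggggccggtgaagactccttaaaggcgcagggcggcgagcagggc

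The windows of *Hspa1a* and *Hspa1b* differed in 3 of 250 bases, and each held 1 GAANNTTC match, from -104 to -97 relative to the start of transcription. The 3 small heat shock protein windows below are shown because the mean of *Hspb1* was lower and those of *Hspb6* and *Hspb7* higher in mutant muscle. The genotypes overlapped for *Hspb1*. For *Hspb6* only the 205 bases outside annotated exons are printed.
Hspb1, chr5:135887669.0-135887918, plus strand: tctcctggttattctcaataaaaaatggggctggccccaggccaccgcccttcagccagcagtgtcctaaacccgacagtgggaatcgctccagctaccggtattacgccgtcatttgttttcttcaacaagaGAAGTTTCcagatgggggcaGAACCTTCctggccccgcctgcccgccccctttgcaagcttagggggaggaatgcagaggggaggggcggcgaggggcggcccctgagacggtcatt
Hspb6, chr7:30553063.0-30553267, plus strand: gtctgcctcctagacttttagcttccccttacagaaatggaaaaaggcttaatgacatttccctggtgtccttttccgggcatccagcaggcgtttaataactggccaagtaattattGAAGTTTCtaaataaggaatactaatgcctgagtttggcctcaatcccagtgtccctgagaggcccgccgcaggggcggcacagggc
Hspb7, chr4:141420529.0-141420778, plus strand: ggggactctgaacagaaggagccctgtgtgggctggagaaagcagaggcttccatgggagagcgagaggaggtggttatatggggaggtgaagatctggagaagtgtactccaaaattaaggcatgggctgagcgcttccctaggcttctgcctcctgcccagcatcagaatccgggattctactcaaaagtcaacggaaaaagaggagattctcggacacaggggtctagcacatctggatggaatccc

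*Hspb1* held 2 GAANNTTC matches (-117 to -110 and -97 to -90), and no GAANNTTC was found in the *Hspb7* window. The *Hspb6* window shown in part held 1 (-120 to -113). Its TATAAA match (-29 to -24) lies in an annotated exon and is not printed. The other *Hspb6* window searched lies wholly in annotated exons and held neither GAANNTTC nor TATAAA. The tail-to-tail pattern TTCNNGAA was found only in both *Hsph1* windows among the 10 searched. These *Hsph1* matches lie within an annotated exon. Either pattern was present in 6 of the 10 windows and in 12.8% of all 32851 windows of this length (6.69% with GAANNTTC and 7.17% with TTCNNGAA). These 6 windows belong to 5 of the 7 genes and are not independent. The 2 *Hsph1* windows overlap and hold the same match, and those of *Hspa1a* and *Hspa1b* are close copies. Among the 10 windows, 1 of *Dnajb1* had 245 of its 250 bases in annotated exons. The array of 3 units, GAANNTTCNNGAA, was in 0 of the 10 windows and in 0.466% of all windows. CCAAT was found in 6 of the 10 windows (5 of the 7 genes) and in 33.8% of all windows. TATAAA was in 1 of the 10 and in 12.4%. TTCNNNGAA, the core sequence bound by STAT proteins, was in 0 of the 10 and in 7.02%. These matches describe letters in a fixed window and do not show binding. The part of the GAANNTTC pattern in the values of the genes that held it was not tested.

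The libraries held between 8426022 and 12469335 counts, so the counts taken as a floor (3) corresponded to between 0.230 and 0.351 TMM-normalized CPM (counts scaled for the size and composition of each library). This floor covers counting error only, and all 10 genes lay far above it. The 10 genes that define skeletal muscle were all detected, with a summed level of 130705 to 142283 CPM, and heart genes summed to 2.05 to 4.47 CPM with *Nppb* at 0. *Smarcc1*, which encodes Baf155, was at 23.4, 19.5 and 17.0 CPM in Baf155 WT mice and 7.05, 6.54 and 7.72 CPM in Baf155 ΔMF mice (log2 fold change -1.49, adjusted p = 0.00907, edgeR's quasi-likelihood test). Of 12116 genes tested, 3 (0.0248%) had an adjusted p under 0.05. Sample titles start with MS13 for Baf155 WT mouse 1 and Baf155 ΔMF mice 1 and 2, with MS15 for Baf155 WT mice 2 and 3, and with MS14 for Baf155 ΔMF mouse 3. Beyond the MS13 mice this prefix, whose meaning the labels do not give, and genotype cannot be told apart. The 2 MS15 mice stood apart on the first principal component (43.3% of the variance), at 22.5 and above against -17.1 to -1.56 for the other mice. Leukocyte markers were also highest in the MS15 mice. All 7 tested of a list of 10 had an unadjusted p under 0.05 in the lower direction, and their summed level was 143 CPM in Baf155 WT mouse 1, 389 and 303 CPM in the MS15 mice and 131 to 201 CPM in Baf155 ΔMF mice. Erythroid genes, for which 3 of 5 tested had an unadjusted p under 0.05, summed to 622 to 1227 CPM in control mice and 371 to 805 CPM in mutant mice. Endothelial markers ran the other way. Of 8 tested, 8 lay above zero and 2 had an unadjusted p under 0.05 in the higher direction, and they summed to 351 CPM in Baf155 WT mouse 1, 264 and 274 CPM in the MS15 mice and 345 to 368 CPM in mutant mice. Smooth muscle and pericyte markers, with 1 of 6 higher at that limit, summed to 791 CPM in Baf155 WT mouse 1, 606 and 653 CPM in the MS15 mice and 749 to 880 CPM in mutant mice. In the lower direction 2 of 6 adipocyte and 3 of 8 fibroblast markers had an unadjusted p under 0.05. Of the fibroblast markers 5 lay below zero and 3 above it, and of the adipocyte markers 5 and 1. The summed levels of both lists overlapped between genotypes. Those of fibroblast markers were 2051 to 2446 CPM in control and 1810 to 2799 CPM in mutant mice. The part of these cells and of the prefix in the results below was not tested, and for each of the 10 genes the value within the MS13 mice is given beside the result. In whole muscle, fewer cells of a type and less RNA per cell cannot be told apart.

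To rank the chaperones, levels were divided by the exon length of each gene (CPM per kilobase; genes on GRCm38, GENCODE M21). *Hspa8*, the constitutive HSP70 that folds new proteins and uncoats clathrin vesicles, was highest at 399.7 ± 49.4 CPM per kilobase (SD, n = 3) in Baf155 WT muscle and ranked at the 99.4th percentile of the genes tested (chr9:40800984-40810087, plus strand; 3 snoRNA genes lie within it). *Cryab*, which encodes αB-crystallin, a partner of desmin and titin, followed at 295.4 ± 19.6 CPM per kilobase (chr9:50751325-50756636, plus strand; overlapped by *Hspb2* on the minus strand). *Hspb1* (HSP25 in the mouse, a partner of actin) was at 155.7 ± 4.77 CPM per kilobase and *Hspb6* (HSP20) at 129.4 ± 22.4 CPM per kilobase. The mice of *Hspa8* and *Cryab* did not overlap in Baf155 WT muscle (361 to 455 against 279 to 317 CPM per kilobase), whereas those of *Hspb1* and *Hspb6* did (150 to 159 against 112 to 155 CPM per kilobase). *Hspb7* was at 51.6 ± 11.2 and *Hsp90aa1* at 27.1 ± 4.53 CPM per kilobase. The other 4 genes had means between 5.55 and 9.15 CPM per kilobase, in the order *Hspa1a*, *Hspa1b*, *Hsph1* and *Dnajb1*, and each overlapped with its neighbour in this order. Thus in resting control muscle the constitutive and small heat shock proteins were far above the inducible HSP70 pair.

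In Baf155 ΔMF muscle *Hspa8* and *Cryab* overlapped (336.3 ± 26.9 and 311.2 ± 64.0 CPM per kilobase, SD, n = 3). The mean of *Hspb6* (186.4 ± 12.7 CPM per kilobase) stood above that of *Hspb1* (133.1 ± 24.5 CPM per kilobase) without overlap, so the order of these 2 means was the opposite of that in Baf155 WT muscle. At the lower end, *Hspa1a* was in place 7 in Baf155 WT and 8 in Baf155 ΔMF muscle and *Hspa1b* in place 8 and 10, where *Hspa1b* at 3.45 ± 1.51 CPM per kilobase and *Dnajb1* at 3.85 ± 1.44 CPM per kilobase overlapped.

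**Figure D1:**
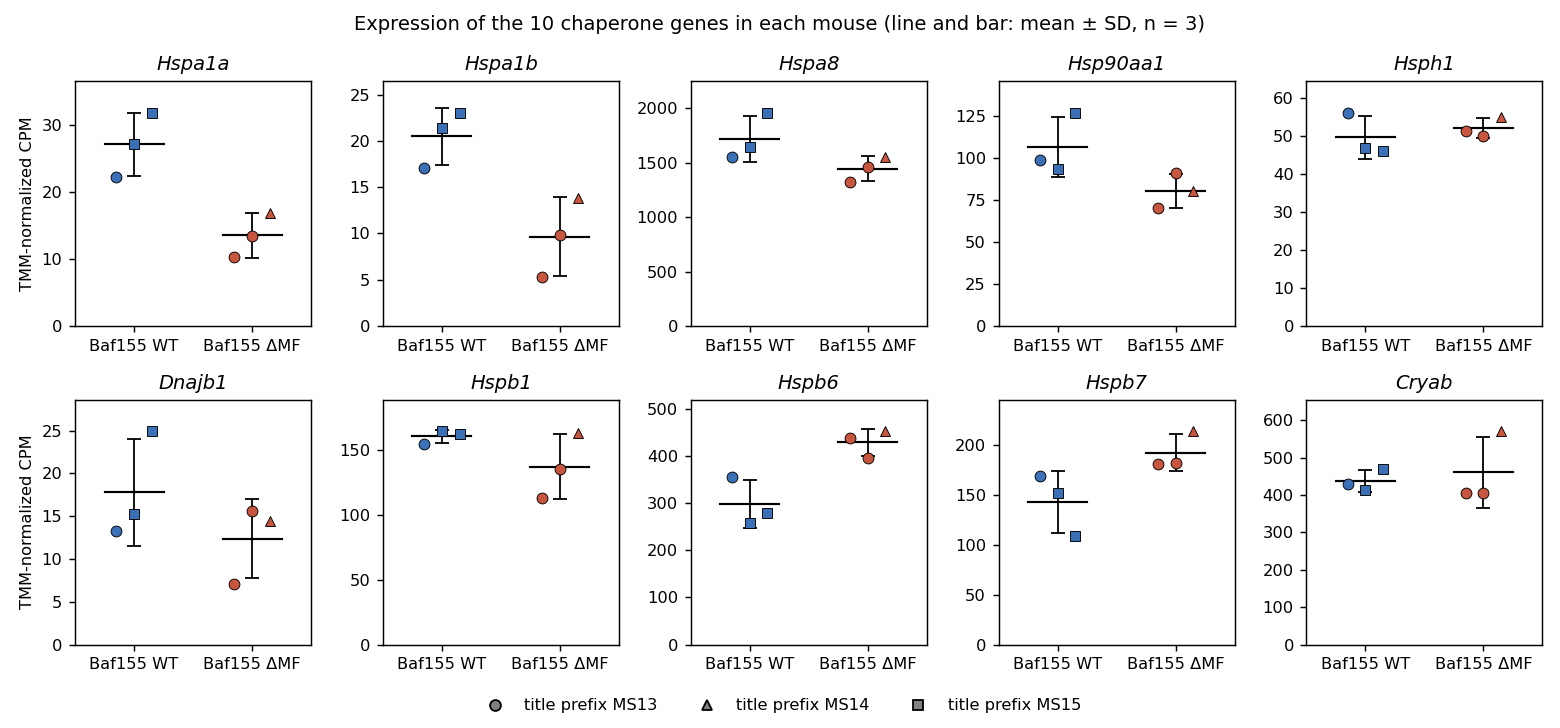
TMM-normalized CPM of each chaperone gene (vertical axis, from 0) in the 3 Baf155 WT mice (blue) and the 3 Baf155 ΔMF mice (red), with the mean and SD as line and bar and the title prefix as the symbol. The Baf155 ΔMF mice sit below every Baf155 WT mouse for *Hspa1a*, *Hspa1b*, *Hspa8* and *Hsp90aa1*, above them for *Hspb6* and *Hspb7*, and among them for the other 4 genes.

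The plot of CPM by mouse shows the spread behind each comparison. *Hspa1a* (chr17:34969190-34972156, minus strand; overlapped by *Gm20481* on the plus strand) was at 22.3, 27.2 and 31.9 CPM in Baf155 WT mice 1 to 3 and at 10.3, 13.5 and 17.0 CPM in Baf155 ΔMF mice 1 to 3. All mutant mice were below all control mice. The means were 27.1 ± 4.76 and 13.6 ± 3.35 CPM (SD, n = 3), with a log2 fold change of -1.01 (SE 0.18, 95% interval -1.40 to -0.61, unadjusted p = 0.000164, adjusted p = 0.186 in edgeR's quasi-likelihood test, rank 10 of 12116 genes). Between the MS13 mice alone the log2 difference of *Hspa1a* was -0.91. Leukocyte markers summed to 143 CPM in this control mouse and 131 and 139 CPM in these mutant mice. Erythroid genes summed to 777 CPM against 371 and 505 CPM in the same mice, with 5 of 5 below zero (median -0.85). Of 8 fibroblast markers 7 lay below zero there (median -0.14). The part of these lists in the *Hspa1a* difference was not tested. *Hspa1b* (chr17:34956436-34959238, minus strand), the neighbouring copy of the same inducible HSP70, was at 17.1, 21.3 and 23.0 CPM in Baf155 WT mice and at 5.34, 9.86 and 13.8 CPM in Baf155 ΔMF mice. The groups again did not overlap, and Baf155 ΔMF mouse 1 was the lowest for both copies. The log2 fold change of *Hspa1b* was -1.09 (SE 0.25, 95% interval -1.64 to -0.55, unadjusted p = 0.00107, adjusted p = 0.436 in edgeR's quasi-likelihood test), and it was -1.21 between the MS13 mice. Without Baf155 WT mouse 1, the only MS13 control, adjusted p was 0.00108 for *Hspa1a* and 0.00565 for *Hspa1b* (edgeR), but in that fit prefix and genotype cannot be told apart at all. Leaving out any of the other 5 mice gave adjusted p between 0.178 and 0.891 for *Hspa1a* and between 0.285 and 0.992 for *Hspa1b* (edgeR). The log2 fold changes of *Hspa1a* and *Hspa1b* were -0.84 and -0.80 without Baf155 ΔMF mouse 1. They were -0.73 and -0.83 without both MS15 mice.

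Reads of the HSP70 pair can be assigned to the wrong copy. The *Hspa1a* and *Hspa1b* transcripts were 99.14% identical over 2200 aligned bases, with an identical run of 638 bases, and their estimated counts were not whole numbers in any of the 6 libraries. Their split is thus uncertain, and their sum was also examined. Summed CPM was 39.4, 48.6 and 54.9 in Baf155 WT mice and 15.6, 23.4 and 30.8 in Baf155 ΔMF mice. When both were counted as 1 gene, the log2 fold change was -1.04 (SE 0.20, 95% interval -1.49 to -0.59, adjusted p = 0.333 in edgeR's quasi-likelihood test). Each copy and their sum were thus lower by a similar factor. The ratio of *Hspa1a* to *Hspa1b* was 1.31, 1.28 and 1.38 in Baf155 WT mice and 1.92, 1.37 and 1.23 in Baf155 ΔMF mice. *Hspa1l*, the third gene of this class, is less alike (85.25% identity to *Hspa1a*), as is *Hspa8* (75.62%, longest identical run 22 bases).

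*Hspa8* was at 1553, 1646 and 1959 CPM in Baf155 WT mice and at 1322, 1466 and 1551 CPM in Baf155 ΔMF mice. The highest mutant mouse lay just below the lowest control mouse, and the groups overlapped under 2 other scalings (upper quartile and total counts). Its log2 fold change was -0.25 (SE 0.12, 95% interval -0.51 to 0.01, adjusted p = 0.622 in edgeR's quasi-likelihood test), with -0.16 between the MS13 mice and -0.15 without Baf155 WT mouse 3. *Hsp90aa1*, the inducible cytosolic HSP90 (chr12:110690605-110702728, minus strand), was at 99.1, 93.7 and 126.9 CPM in Baf155 WT mice and at 70.3, 90.9 and 80.3 CPM in Baf155 ΔMF mice. These groups did not overlap either, but Baf155 WT mouse 2 and Baf155 ΔMF mouse 2 differed by less than the spread within each genotype. The log2 fold change of *Hsp90aa1* was -0.40 (SE 0.13, 95% interval -0.69 to -0.11, unadjusted p = 0.0106, adjusted p = 0.601 in edgeR's quasi-likelihood test) and -0.31 between the MS13 mice. Without Baf155 WT mouse 3 it was -0.26 (unadjusted p = 0.0548 by edgeR's test across all genes), and without Baf155 ΔMF mouse 1 it was -0.31 (unadjusted p = 0.0555 by the same test).

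*Dnajb1*, the J-domain partner that is induced together with HSP70 (chr8:83608193-83612653, plus strand), was at 13.2, 15.2 and 24.9 CPM in Baf155 WT mice and at 7.05, 15.6 and 14.4 CPM in Baf155 ΔMF mice. The groups overlapped, and the difference rested on the highest control and the lowest mutant mouse. Its log2 fold change was -0.53 (SE 0.28, 95% interval -1.15 to 0.10, adjusted p = 0.633 in edgeR's quasi-likelihood test), with -0.33 between the MS13 mice, -0.21 without Baf155 WT mouse 3 and -0.25 without Baf155 ΔMF mouse 1. *Hsph1*, which encodes the HSP110 that exchanges nucleotide on HSP70 (chr5:149614287-149636376, minus strand), was at 56.2, 46.8 and 46.1 CPM in Baf155 WT mice and at 51.4, 50.0 and 55.1 CPM in Baf155 ΔMF mice. The groups overlapped, and the log2 fold change of 0.07 (SE 0.10, 95% interval -0.15 to 0.29) turned to -0.15 between the MS13 mice. The interval of *Hsph1* leaves out a change of the size seen for *Hspa1a*.

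**Figure D2:**
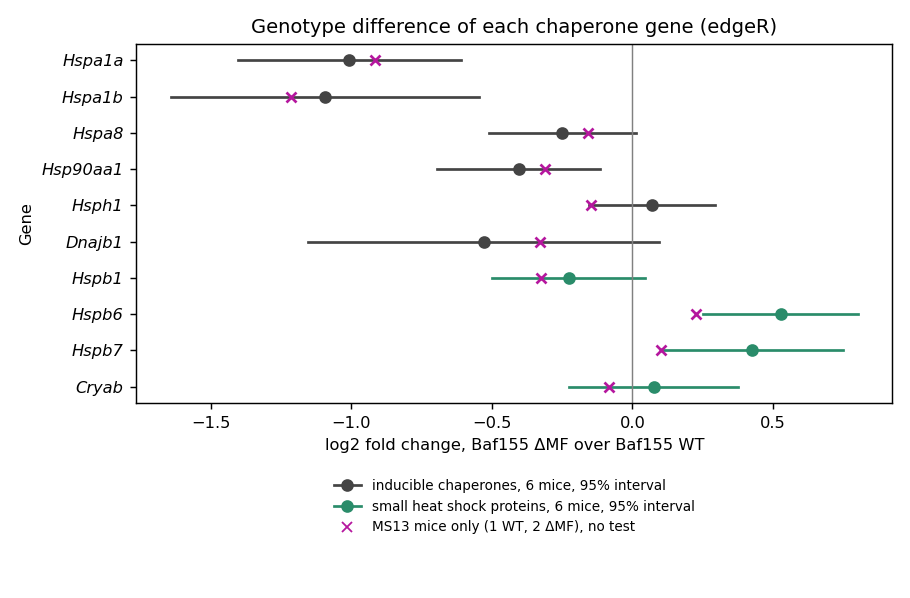
Log2 fold change of Baf155 ΔMF over Baf155 WT (horizontal axis) for each chaperone gene, as points with 95% intervals from edgeR on 6 mice, with crosses for the MS13 mice alone (1 Baf155 WT, 2 Baf155 ΔMF, no test). The crosses of *Hspa1a* (-0.91) and *Hspa1b* (-1.21) lie near their points, those of *Hspb6* (0.23) and *Hspb7* (0.10) lie nearer to zero than their points, and those of *Hsph1* and *Cryab* lie on the other side of zero.

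Among the small heat shock proteins, *Hspb6* had the largest difference. *Hspb6* (chr7:30552178-30555443, plus strand) overlaps *Proser3* and *Lin37* on the minus strand and a miRNA gene, *Gm38670*, and whether strand was used in counting was not given in the sources used here. It was at 355.9, 258.5 and 278.4 CPM in Baf155 WT mice and at 438.5, 395.7 and 451.4 CPM in Baf155 ΔMF mice. All mutant mice were above all control mice, and the control mouse nearest to them was the MS13 mouse. The means were 297.6 ± 51.5 and 428.5 ± 29.1 CPM (SD, n = 3), with a log2 fold change of 0.53 (SE 0.13, 95% interval 0.25 to 0.80, unadjusted p = 0.00148, adjusted p = 0.545 in edgeR's quasi-likelihood test). Between the MS13 mice the log2 difference was 0.23. Without Baf155 WT mouse 1, where prefix and genotype cannot be told apart, it was 0.68 with an adjusted p of 0.00108, and the adjusted p without any other mouse was between 0.467 and 0.992 (edgeR). *Hspb7*, a binding partner of filamin C at the Z-disc (chr4:141420779-141425311, plus strand), was at 168.8, 151.3 and 108.5 CPM in Baf155 WT mice and at 180.5, 182.0 and 213.1 CPM in Baf155 ΔMF mice. The groups did not overlap, with the lowest mutant mouse close to the MS13 control mouse. Its log2 fold change was 0.43 (SE 0.15, 95% interval 0.10 to 0.75, unadjusted p = 0.0148, adjusted p = 0.601 in edgeR's quasi-likelihood test) and 0.10 between the MS13 mice. It was 0.26 without Baf155 WT mouse 3 (unadjusted p = 0.0458 by edgeR's test) and 0.35 without Baf155 ΔMF mouse 3 (unadjusted p = 0.0690 by edgeR's test), and adjusted p was 0.0158 without Baf155 WT mouse 1, the only MS13 control, and between 0.495 and 0.992 without any other mouse (edgeR).

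*Hspb1* (chr5:135887919-135889563, plus strand) was at 155.0, 164.3 and 162.4 CPM in Baf155 WT mice and at 113.1, 135.1 and 163.5 CPM in Baf155 ΔMF mice. The 3 control mice were close together, and the MS14 mutant mouse lay among them while the MS13 mutant mice lay below. The log2 fold change was -0.23 (SE 0.12, 95% interval -0.50 to 0.04, adjusted p = 0.633 in edgeR's quasi-likelihood test), with -0.33 between the MS13 mice, -0.37 without Baf155 ΔMF mouse 3 and -0.10 without Baf155 ΔMF mouse 1. *Cryab* was at 429.9, 412.2 and 468.8 CPM in Baf155 WT mice and at 404.9, 406.3 and 569.6 CPM in Baf155 ΔMF mice. The groups overlapped, with the MS14 mutant mouse highest and the MS13 mutant mice lowest of the 6. The log2 fold change of *Cryab* was 0.07 (SE 0.14, 95% interval -0.22 to 0.37, adjusted p = 0.884 in edgeR's quasi-likelihood test). It was -0.084 between the MS13 mice and -0.10 without Baf155 ΔMF mouse 3.

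All 10 genes passed the filter on low counts. At an unadjusted p under 0.05, 3 of the 10 were lower in Baf155 ΔMF muscle (4.6% of all genes tested) and 2 were higher (3.35%), or 5 of 10 against 7.95% in either direction. At an adjusted p under 0.05 there were 0 of the 10 by edgeR's quasi-likelihood test, 3 by DESeq2 (*Hspa1a*, *Hspa1b* and *Hspb6*) and 0 by limma-voom. Without Baf155 WT mouse 1, edgeR's test gave 5 (*Hspa1a*, *Hspa1b*, *Hsp90aa1*, *Hspb6* and *Hspb7*), in a fit in which 955 genes passed and in which prefix and genotype cannot be told apart. The 2 genotypes did not overlap for 6 of the 10 genes (10.8% of all genes tested), with 4 lower (5.57%) and 2 higher (5.2%). *Hspa1a* and *Hspa1b* enter these counts as 2 genes, although the split of reads between them is uncertain. The 10 genes were chosen with earlier results of these data known, so setting these counts beside the shares does not test the set. The median log2 fold change was -0.47 for the 6 inducible chaperones, constitutive *Hspa8* included. It was 0.25 for the 4 small heat shock proteins, beside -0.00095 for all genes tested. A title prefix covariate leaves the genotype difference to the MS13 mice. With it, 3 genes had an unadjusted p under 0.05 by edgeR's test (*Hspa1a*, *Hspa1b* and *Hspb1*, all lower), beside 5.08% of all genes tested. *Hspb6* and *Hspb7* did not pass in that fit. Without both MS15 mice, which leaves 1 control mouse, the log2 fold changes of *Hspb6* and *Hspb7* were 0.27 and 0.18. That of *Hsp90aa1* was -0.30 there. For single genes, exact permutation of 3 against 3 mice allows no p below 0.10, so p-values come from the model across all genes.

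**Figure D3:**
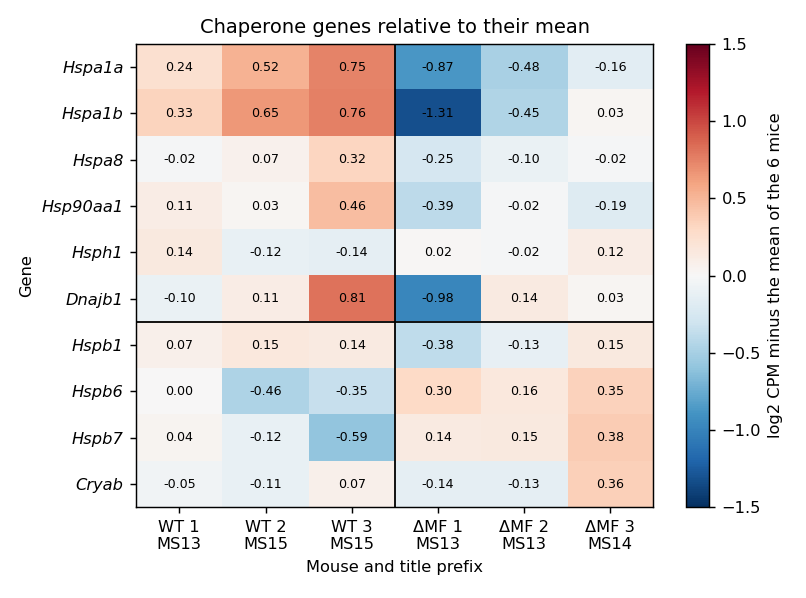
Log2 CPM of each chaperone gene (rows) in each mouse (columns, with title prefix) minus the mean of the 6 mice, in colour and as a printed value. Baf155 WT mouse 3 has the highest and Baf155 ΔMF mouse 1 the lowest value in 5 of the 6 inducible genes, and Baf155 ΔMF mouse 3 is highest for 3 of the 4 small heat shock proteins.

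The map of centred values shows that the mice within a genotype differed for several genes at once. Baf155 WT mouse 3 was highest and Baf155 ΔMF mouse 1 lowest of the 6 mice for *Hspa1a*, *Hspa1b*, *Hspa8*, *Hsp90aa1* and *Dnajb1*, the exception being *Hsph1*. Relative to the mean of the 6 mice, log2 CPM of *Hspa1b* ranged from -1.31 in Baf155 ΔMF mouse 1 to 0.76 in Baf155 WT mouse 3, and that of *Dnajb1* from -0.98 to 0.81 in the same mice. By contrast, *Hspa8* ranged only from -0.25 to 0.32. Baf155 ΔMF mouse 3 was highest for *Hspb6*, *Hspb7* and *Cryab*. *Hsph1*, *Hspb6* and *Hspb7* lay furthest from the mean profile of the inducible genes (root mean square difference over the 6 mice of 0.401, 0.617 and 0.598 in log2 units). *Hsp90aa1* lay nearest to it (0.152). The inducible genes are themselves part of this mean, and the measure depends on the size of differences as well as their pattern. *Hspa1b* was at 0.379, although its mice ranked as those of *Hspa1a* and *Hspa8* did. Outside the 10 genes, the profiles nearest to this mean among 7704 genes of at least 10 CPM were those of *Rhob* (0.0800), *Klf4* (0.107), *Mfap5* (0.120), *Tuba1a* (0.128), *Tubb2a* (0.129) and *Anxa2* (0.130). *Rhob* encodes a small GTPase, *Klf4* a zinc finger transcription factor, *Tuba1a* and *Tubb2a* tubulins and *Anxa2* an annexin.

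**Figure D4:**
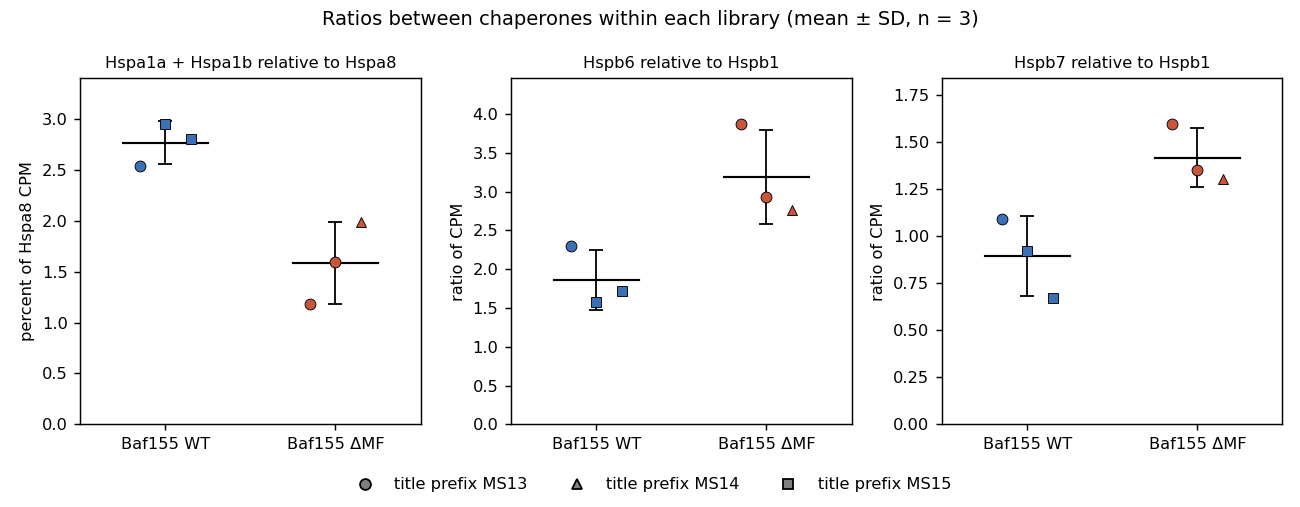
Ratios of CPM within each library (vertical axes, from 0) for the summed HSP70 pair as a percentage of *Hspa8*, and for *Hspb6* and *Hspb7* relative to *Hspb1*, with mean ± SD of 3 mice and the title prefix as the symbol. The 3 Baf155 ΔMF mice lie below all Baf155 WT mice in the first ratio (1.18 to 1.98% against 2.54 to 2.95%) and above them in both others.

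Ratios between chaperones do not depend on how libraries were scaled. The inducible pair *Hspa1a* and *Hspa1b* amounted to 2.54, 2.95 and 2.80% of the CPM of constitutive *Hspa8* in Baf155 WT mice and to 1.18, 1.59 and 1.98% in Baf155 ΔMF mice (2.76 ± 0.209% and 1.59 ± 0.402%, SD, n = 3). The groups did not overlap, so the pair was lower also relative to its constitutive relative. The ratio of *Hspb6* to *Hspb1* was 2.30, 1.57 and 1.71 in Baf155 WT mice and 3.88, 2.93 and 2.76 in Baf155 ΔMF mice. The ratio of *Hspb7* to *Hspb1* was 1.09, 0.921 and 0.668 against 1.60, 1.35 and 1.30. Neither overlapped between genotypes, also with the MS13 control mouse, which had the highest control value in both. The ratio plot shows all 3. *Hspb1* itself had the lower mean in mutant muscle, and relative to *Cryab* the genotypes overlapped for *Hspb6* (82.8, 62.7 and 59.4% of *Cryab* in Baf155 WT mice, 108.3, 97.4 and 79.2% in Baf155 ΔMF mice). Inducible *Hsp90aa1* as a percentage of constitutive *Hsp90ab1* overlapped between the genotypes (11.9, 11.1 and 13.8% in Baf155 WT mice, 8.69, 11.3 and 10.5% in Baf155 ΔMF mice).

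The other genes of the chaperone network were summarized from lists of families. Of 93 further chaperone genes 89 were tested. At an unadjusted p under 0.05, 5 were lower and 0 higher by edgeR's test (4.6% and 3.35% of all genes tested), and 67 had a log2 fold change below zero and 22 above it, beside 50.2% of all genes below zero. Their median was -0.06. Between the MS13 mice alone, 56 lay below zero and 33 above it, with a median of -0.02. None of the 6 tested heat shock factors and regulators passed this limit, and *Hsf1*, the main activator of the heat shock response, was at 30.2, 30.5 and 30.8 CPM in Baf155 WT mice and at 27.1, 32.3 and 30.5 CPM in Baf155 ΔMF mice (log2 fold change -0.03, 95% interval -0.25 to 0.20). *Hsbp1*, an inhibitor of HSF1, had a log2 fold change of -0.15, *Bag3*, the co-chaperone that couples HSP70 to small heat shock proteins, one of 0.19, and *Ier5*, a cofactor of HSF1, one of -0.22. In the MS13 mice these differences were 0.05, -0.16 and -0.77, so those of *Hsbp1* and *Bag3* had the other sign there.

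**Figure D5:**
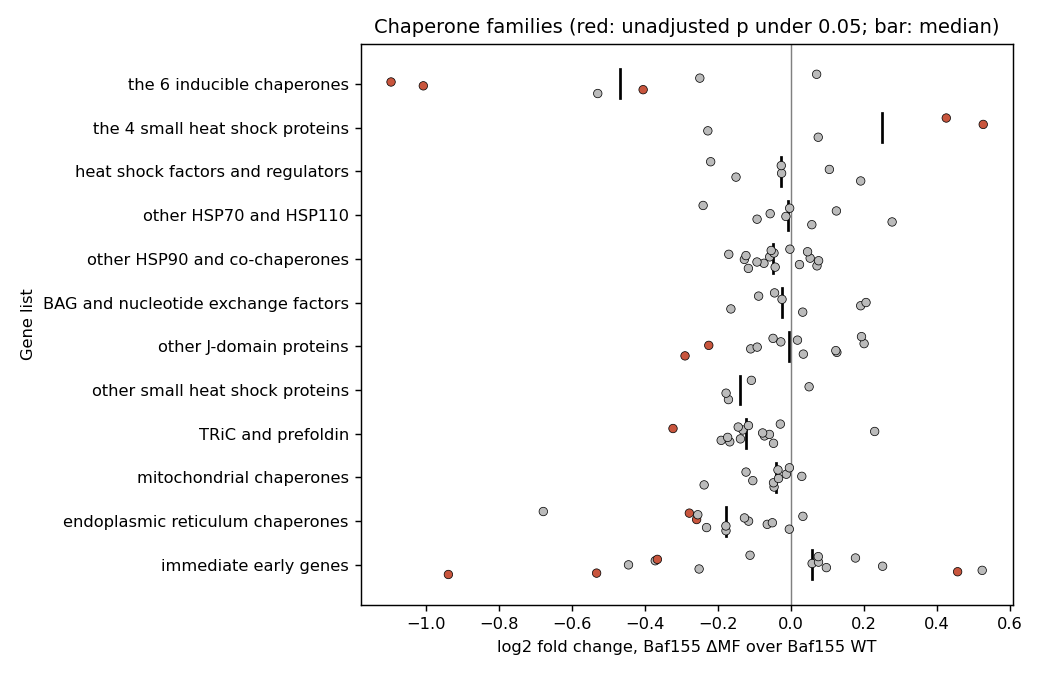
Log2 fold change of Baf155 ΔMF over Baf155 WT (horizontal axis) of each tested gene (points) by gene list (rows), with the median as a bar and an unadjusted p under 0.05 in red. The 6 inducible chaperones have a median of -0.47 and the 4 small heat shock proteins one of 0.25, and the medians of the other lists shown lie between -0.18 and 0.06.

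As the plot of chaperone families shows, the remaining HSP70 and HSP110 genes (8 tested, 5 below and 3 above zero, median -0.01) and the remaining HSP90 genes and co-chaperones (16 tested, 11 below and 5 above zero, median -0.05) held no gene with an unadjusted p under 0.05 in edgeR's test. Constitutive *Hsp90ab1* was at 865 ± 48.2 CPM in control and 792 ± 26.1 CPM in mutant muscle (SD, n = 3). Its log2 fold change was -0.13 with a 95% interval of -0.34 to 0.08. Among 12 other J-domain proteins 2 were lower at that limit, *Dnajb4* (log2 fold change -0.22, unadjusted p = 0.0308 by edgeR's test) and *Dnaja1* (-0.29, unadjusted p = 0.0421), a co-chaperone of HSP70. Neither passed the adjusted limit, and the differences were -0.28 and -0.33 between the MS13 mice. Of 4 tested small heat shock proteins outside the 10 genes, *Hspb8*, the partner of BAG3, was the most abundant at 674 ± 57.3 CPM in control and 625 ± 51.9 CPM in mutant muscle (log2 fold change -0.11, 95% interval -0.34 to 0.13), and *Hspb2*, which overlaps *Cryab* on the other strand, had a log2 fold change of -0.18. *Cryaa*, the lens α-crystallin, was listed at 0 in all mice. Mean values in Baf155 ΔMF muscle were therefore higher for *Hspb6* and *Hspb7*, little different for *Cryab* (log2 fold change 0.07) and lower for *Hspb8*, *Hspb2* and *Hspb1*. Of the 4 tested outside the 10 genes, 3 lay below zero and 1 above it. Between the MS13 mice the log2 differences were 0.23 for *Hspb6*, 0.10 for *Hspb7*, -0.03 for *Hspb8* and -0.04 for *Hspb2*. The difference between these genes was not tested.

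The folding machines of other compartments had small differences. For the TRiC chaperonin, which folds actin and tubulin, and its partner prefoldin, 13 of 14 tested genes lay below zero (median -0.12) and *Pfdn5* had an unadjusted p under 0.05 (log2 fold change -0.32, adjusted p = 0.603 in edgeR's quasi-likelihood test). Only 7 of the 14 lay below zero between the MS13 mice (median 0.0074), where *Pfdn5* was at -0.0089. Endoplasmic reticulum chaperones lay below zero in 12 of 13 genes (median -0.18), with 2 at an unadjusted p under 0.05. *Hspa5*, the HSP70 of that compartment known as BiP, was at 233 ± 18.2 CPM in control and 195 ± 1.07 CPM in mutant muscle without overlap (SD, n = 3; log2 fold change -0.26, unadjusted p = 0.0167, adjusted p = 0.601 in edgeR's quasi-likelihood test), and *Pdia6*, a disulfide isomerase, had a log2 fold change of -0.28. Among MS13 mice 7 of these 13 genes lay below zero (median -0.03), with *Hspa5* at -0.13 and *Pdia6* at 0.03. Of 10 mitochondrial chaperones 9 lay below zero and 0 had an unadjusted p under 0.05 in edgeR's test (median -0.04). BAG proteins and other nucleotide exchange factors had none either (7 tested, median -0.02).

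Clients and fiber types of the small heat shock proteins were examined beside them. Of 10 clients and Z-disc partners 7 lay above zero (median 0.14), and *Actn2*, the Z-disc α-actinin, had an unadjusted p under 0.05 in the higher direction (log2 fold change 0.37, adjusted p = 0.601 in edgeR's quasi-likelihood test). Between the MS13 mice 3 of the 10 lay above zero and *Actn2* differed by -0.0018, at 565.7 CPM in the control mouse and 582.6 and 547.9 CPM in the mutant mice, against 386 and 372 CPM in the MS15 controls. Both lists of fiber genes were near zero in the median (-0.01 for 10 slow and -0.10 for 10 fast genes). Each held 1 gene with an unadjusted p under 0.05, *Myoz2* at 0.31 and *Myh1* at 0.49, and these were 0.10 and 0.28 between the MS13 mice. Of the slow genes 9 of 10 lay below zero between the MS13 mice (median -0.14), and of the fast genes 5 of 10 did (median 0.01). In immediate early genes, which respond to stress within minutes, 3 of 15 tested were lower and 1 higher at that limit. *Atf3* had a log2 fold change of -0.94 (adjusted p = 0.0551 in edgeR's quasi-likelihood test) without overlap, *Btg2* one of -0.53 and *Dusp1* one of 0.46. Among MS13 mice these were -1.09, -0.85 and 0.54. The part of these genes in the values of *Hspa1a* and *Hspa1b* was not tested.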

How the data were processed

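Skeletal muscle RNA of 3 Baf155 WT and 3 Baf155 ΔMF mice had been sequenced from stranded total RNA libraries. Expected counts, the estimated numbers of reads per gene symbol before any normalization, were deposited by the authors. The submitters' processing notes name CASAVA 1.8.2, cutadapt 1.10, Bowtie2 2.2.7, TopHat2 2.1.1, RSEM 1.2.30 and limma and the builds mm10 and GRCm38; their roles, the annotation and the use of strand in counting are not given in the sources used here.

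After rounding, the counts were fitted in edgeR 4.0.16 (R 4.3.3). Low counts were filtered with filterByExpr (minimum count 10, minimum total count 15), which left 12116 genes. Libraries were scaled by TMM, and the genotypes given by the labels were tested by quasi-likelihood F tests with no covariate and Benjamini-Hochberg adjustment over all genes tested. The procedure was run on simulated counts that held no effect of title prefix, so that run cannot speak to the prefix in these data. Log2 CPM used a prior count of 2. As alternatives, the comparison was repeated with limma-voom (limma 3.58.1), DESeq2 1.42.0, other scalings and filters, robust fitting, title prefix as covariate and 1 mouse left out at a time. The values of MS13 mice alone carry no test, and for the gene lists they were added after seeing the data.

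The chaperone genes and the gene lists were chosen with earlier results of these data known. The text names the 10 genes, *Smarcc1*, up to 3 genes per list with the smallest p, and the 6 genes nearest to the mean profile of the inducible chaperones. *Hsf1*, *Hspa1l*, *Cryaa* and *Nppb* were named beyond this rule after their values were seen. Promoter sequence came from RefSeq (GRCm38.p6) and gene positions and exon lengths from GENCODE M21 (GRCm38).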

Additional observations from a re-analysis of the deposited data

How the results depend on the processing

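The sign of the difference was kept for 8 of the 10 chaperone genes under all alternatives run. *Hsph1* turned to -0.15 with title prefix as covariate and between the MS13 mice, and to -0.11 without both MS15 mice. *Cryab* turned to -0.084 with the covariate and between the MS13 mice, and ranged from -0.10 without Baf155 ΔMF mouse 3 to 0.16 without Baf155 ΔMF mouse 1. *Hspa1a* and *Hspa1b* had an unadjusted p under 0.05 in 16 of 16 alternatives, *Hspb6* in 14, and *Hspb7* and *Hsp90aa1* in 13 each. Adjusted p ranged from 0.000320 to 0.891 for *Hspa1a* and from 0.00108 to 0.999 for *Hspb6* over these fits. The number of the 10 genes at an unadjusted p under 0.05 was 5 (beside 7.95% of all genes tested) and went to 3 with the covariate (5.08%). It was 4 to 7 when 1 mouse was left out, beside 3.69% to 23.8% of all genes. The 7 came from the fit without Baf155 WT mouse 1, in which 23.8% of all genes passed. All genes with an adjusted p under 0.05 numbered 3 in edgeR and 17 without a filter, 22 in DESeq2, 5 in limma-voom and 16 with the covariate. Leaving out 1 mouse gave 0 to 955, with 955 without Baf155 WT mouse 1, 7 without Baf155 WT mouse 3, 1 without Baf155 ΔMF mouse 1, and 0 in edgeR without Baf155 WT mouse 2 or Baf155 ΔMF mouse 2 (451 and 568 at an unadjusted p under 0.05). Leaving out both MS15 mice, chosen after seeing the data, gave 16. The cause was not tested. Where 1 control mouse remained, it was assumed to vary like the mutant mice. No paired analysis was possible because the replicate numbers in the labels do not match mice across the genotypes. Counting error weighs most on *Hspa1b* and *Dnajb1*, the least abundant of the 10 genes.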
